A study of Mus musculus with 6 samples.

Results

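The 10 genes described here belong to the unfolded protein response and the integrated stress response. They are *Hspa5*, *Ddit3*, *Atf4*, *Atf3*, *Trib3*, *Chac1*, *Asns*, *Xbp1*, *Herpud1* and *Sdf2l1*. They were taken by gene symbol from the 34745 genes in the table of read counts, and all 10 were among the 13892 genes with enough reads to be tested. RNA-seq was performed on 6 liver tumors, 3 from *Prmt3*f/f mice (labelled WT, replicates 7, 66 and 71), which carry the floxed gene, and 3 from *Prmt3*LKO mice (labelled Prmt3-KO, replicates 92, 93 and 94). In *Prmt3*LKO mice Alb-Cre removes *Prmt3*, a protein arginine methyltransferase, from hepatocytes, and other cells of the tumor can keep it. Both genotypes had been given diethylnitrosamine (DEN), a liver carcinogen (25 mg/kg, at 2 weeks of age) and then 10% CCl4, which injures hepatocytes (0.5 ml/kg, 2 times a week from 6 weeks), and tumors were taken at 26 weeks. The comparison asks how the RNA of these genes differs between tumors with and without *Prmt3* in hepatocytes. The labels do not say whether each tumor came from a separate mouse, so p-values measure the spread between these tumors.

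Liver cells secrete large amounts of protein and fold it in the endoplasmic reticulum (ER). When unfolded protein gathers there, the sensors IRE1, ATF6 and PERK are set free from the chaperone BiP, which *Hspa5* encodes. IRE1 splices *Xbp1* mRNA into the form that encodes an active transcription factor, and ATF6 and XBP1 raise chaperones and degradation factors of the ER. PERK and the other kinases of eIF2α (GCN2, PKR and HRI) slow translation in general but favor translation of *Atf4*, and ATF4 raises genes of amino acid supply and the factors *Ddit3* (CHOP), *Atf3* and *Trib3*. Gene counts report RNA only. They separate neither spliced from unspliced *Xbp1*, nor a change in ATF4 translation from none.

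Between 18440244 and 27976598 reads were counted per tumor. Levels are given as CPM, counts scaled to a common library size after TMM normalization, and 3 counts, taken as the limit that a count of 0 allows, correspond to 0.105 to 0.171 CPM, which covers counting error only. *Prmt3* itself was at 6.60, 8.49 and 10.2 CPM in the 3 *Prmt3*f/f tumors and at 2.80, 2.03 and 3.82 CPM in the 3 *Prmt3*LKO tumors, in the order of replicates given above and kept from here on, without overlap (log2 fold change −1.55, SE 0.29, edgeR quasi-likelihood unadjusted p = 0.000827 and Benjamini-Hochberg adjusted p = 0.592). All 12 hepatocyte markers examined were detected, 0 of them lower or higher at an unadjusted p under 0.05, with *Alb*, the gene of serum albumin, between 108200 and 164700 CPM. *Prmt3*f/f replicate 7 and *Prmt3*LKO replicate 93 stood apart in some genes of this list but not in others. *Cyp2e1*, a cytochrome of hepatocytes around the central vein, was at 166 and 244 CPM in them and between 1057 and 1330 CPM in the other tumors. They were also the 2 lowest tumors for *Cps1* (958 and 1156 CPM, against 2164 to 3006 CPM), *Tat*, *Pck1* and *Ass1*, and by a small margin for *Hnf4a*. For *Alb*, *Ttr*, *Apoa1* and *Apoa2* these tumors were not the 2 lowest. *Serpina1a*, at 3730 and 3674 CPM in them, lay within the 2610 to 4277 CPM of the other tumors. *Fgb* had its highest value, 8124 CPM, in replicate 7. Replicate 7 also held the highest value of 23.75% and the lowest value of 23.64% of all genes tested, more than any other tumor. Of 15 leukocyte markers, 11 were lower in *Prmt3*LKO tumors at an unadjusted p under 0.05, against 4.37% of all genes tested. The summed level of the 15 was 182.6 to 230.9 CPM in *Prmt3*f/f and 102.8 to 129.4 CPM in *Prmt3*LKO tumors. In bulk tissue, fewer cells of a type and less RNA per cell cannot be told apart.

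None of the 10 stress response genes passed the limits for a call, which were an adjusted p under 0.05 and a change of at least 2-fold. The quasi-likelihood test called 0% of all genes tested, that is 0 of 13892, with 912 at an unadjusted p under 0.05. DESeq2 called 0.389% and the exact test of edgeR 0.288% of all genes, and each of them also called 0 of the 10. At an unadjusted p under 0.05, 1 of the 10, *Ddit3*, was higher in *Prmt3*LKO tumors against 2.2% of all genes, and 0 of the 10 were lower against 4.37%. *Ddit3* was also the single member with all *Prmt3*LKO tumors above all *Prmt3*f/f tumors, as were 5.56% of all genes, and none had them all below, as had 6.6%. The log2 fold changes ranged from −0.61 for *Trib3* to 0.53 for *Ddit3*, 5 negative and 5 positive, with a median of −0.05 against a median of 0.00 over all genes tested. For 4 genes (*Ddit3*, *Atf4*, *Xbp1* and *Sdf2l1*) the 95% interval of the ratio lay inside 0.5 to 2. For the other 6 it reached a 2-fold difference in at least 1 direction.

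**Figure D1:**
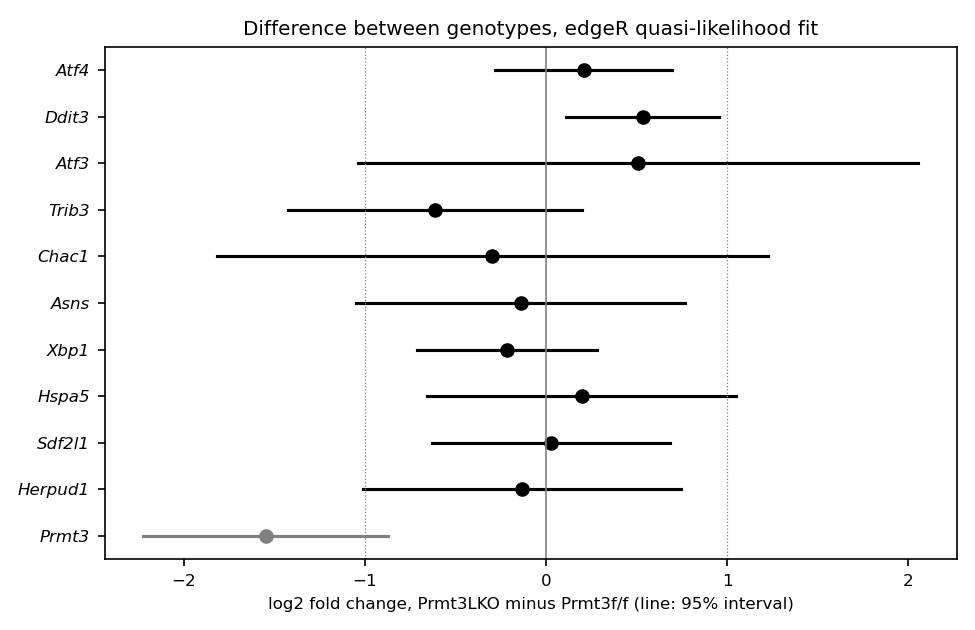
Log2 fold change of *Prmt3*LKO over *Prmt3*f/f tumors (x axis, point) with its 95% interval (line) for the 10 stress response genes and, in grey, *Prmt3*, from the quasi-likelihood fit, with dotted lines at 2-fold changes. The interval of *Ddit3*, 0.11 to 0.96, is the one among the 10 that does not hold 0, and that of *Atf3*, −1.04 to 2.06, is the widest.

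The factors of these pathways act through short promoter elements, and the promoter windows are shown so that the values can be read next to them. RefSeq (GRCm38.p6) gave a window of 300 bases, 250 before and 50 after the start, for all 10 genes, and both strands were searched. The ER stress element, which ATF6 and XBP1 use, is CCAAT and CCACG 9 bases apart and occurred in 0.119% of 32851 windows. The element that binds C/EBP and ATF factors, ATF4 among them, was searched as TGATGNAA and occurred in 3.97% of windows. The unfolded protein response element TGACGTG occurred in 2.01%, and the cAMP response element TGACGTCA in 1.79%. The window of *Hspa5* (chr2:34771840-34772139, plus strand) is shown whole because it held the ER stress element, 65 to 47 bases before the start, and the unfolded protein response element, both in capitals.
Hspa5: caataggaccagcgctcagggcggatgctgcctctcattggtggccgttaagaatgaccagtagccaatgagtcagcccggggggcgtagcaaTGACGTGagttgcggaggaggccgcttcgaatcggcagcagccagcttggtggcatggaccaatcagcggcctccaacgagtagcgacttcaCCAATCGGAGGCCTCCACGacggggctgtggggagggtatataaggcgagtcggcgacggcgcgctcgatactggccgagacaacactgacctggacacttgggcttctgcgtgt
The C/EBP-ATF element was found in 5 of the 10 windows, those of *Asns*, *Atf3*, *Chac1*, *Herpud1* and *Trib3*, of which 4 read it on the opposite strand (TTNCATCA). The next lines show it in capitals for 4 genes whose levels are compared below, at chr6:7693205-7693252 (minus strand) for *Asns*, chr1:191183416-191183463 (minus strand) for *Atf3*, whose RefSeq start lies inside the gene span of the table, chr2:119351029-119351076 (plus strand) for *Chac1* and chr8:94386297-94386407 (plus strand) for *Herpud1*.
Asns: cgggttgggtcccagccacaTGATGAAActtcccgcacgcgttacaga
Atf3: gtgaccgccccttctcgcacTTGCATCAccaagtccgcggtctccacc
Chac1: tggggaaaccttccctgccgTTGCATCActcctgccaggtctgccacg
Herpud1: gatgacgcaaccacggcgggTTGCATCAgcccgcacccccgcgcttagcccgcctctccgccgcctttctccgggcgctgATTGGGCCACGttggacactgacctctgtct
The second run of capitals in *Herpud1* is ER stress element II, ATTGG and CCACG 1 base apart, which was added to the search after the windows had been seen and occurred in 0.0365% of all windows. The short site CCACG, which lies inside both ER stress elements, occurred in 6 of the 10 windows and in 32.8% of all windows. In *Trib3* the element lay 15 to 22 bases after the start. The cAMP response element was in 0 of the 10 windows. *Ddit3* and *Xbp1* held no exact match to any of these letters in this window. Near matches were not searched, and their share over all windows was not counted. The window of *Ddit3* holds cgtgc and attgg 9 bases apart. That differs in 1 base from the ER stress element on the opposite strand, CGTGG and ATTGG 9 bases apart. Such a near match is not particular to *Ddit3*. The window of *Herpud1* holds ccaat and ccaca 9 bases apart, outside the stretch shown, which also differs in 1 base from the element. The window of *Ddit3* (chr10:127290543-127290842, plus strand) is shown because it was the 1 of the 10 genes whose groups did not overlap. All *Prmt3*LKO tumors were above for 5.56% and below for 6.6% of all genes tested.
Ddit3: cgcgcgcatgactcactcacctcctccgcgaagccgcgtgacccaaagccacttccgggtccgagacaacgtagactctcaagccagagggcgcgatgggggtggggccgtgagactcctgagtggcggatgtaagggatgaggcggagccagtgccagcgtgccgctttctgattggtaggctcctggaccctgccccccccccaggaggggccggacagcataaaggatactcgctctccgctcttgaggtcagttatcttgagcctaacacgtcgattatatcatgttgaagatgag
These matches are descriptions of the sequence and do not show binding.

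**Figure D2:**
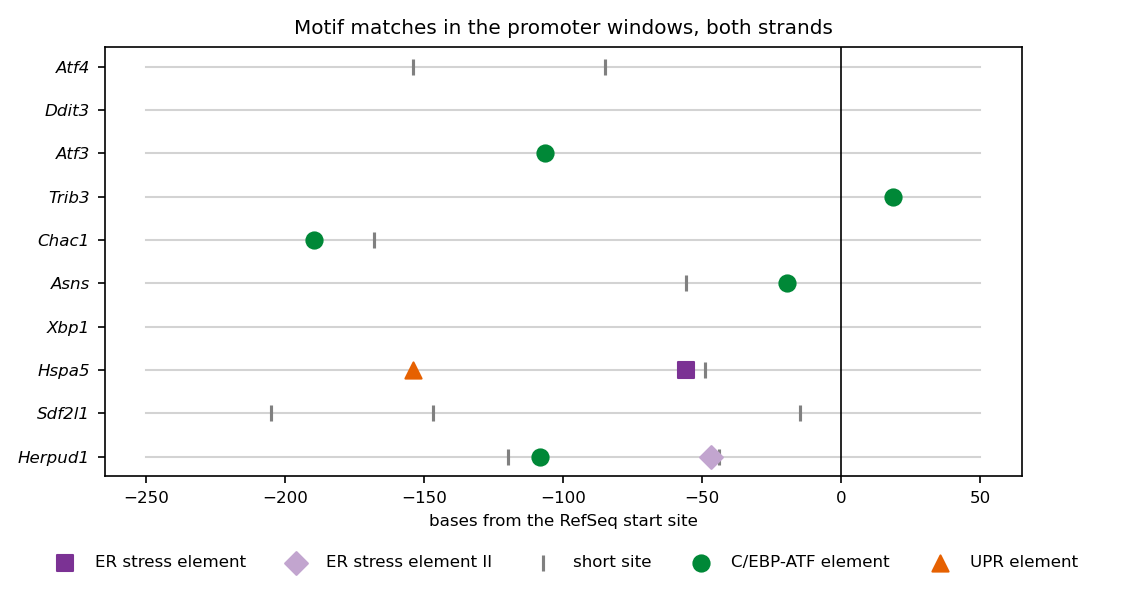
Position of each motif match (x axis, bases from the RefSeq start, both strands) in the promoter window of each of the 10 genes (rows), with 1 symbol for each kind of element. The C/EBP-ATF element is in 5 windows, the ER stress element in that of *Hspa5* alone, and *Ddit3* and *Xbp1* have no symbol.

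Among the transcription factors, *Ddit3* (ENSMUSG00000025408, chromosome 10, 127290774 to 127296288, plus strand) encodes CHOP, which promotes cell death under lasting ER stress. It was at 9.002, 12.0 and 11.9 CPM in *Prmt3*f/f and at 13.9, 17.95 and 15.8 CPM in *Prmt3*LKO tumors. Every *Prmt3*LKO tumor was above every *Prmt3*f/f tumor, and the narrowest gap lay between *Prmt3*f/f replicate 66 and *Prmt3*LKO replicate 92. The means were 11.0 ± 1.7 and 15.9 ± 2.0 CPM (SD, n = 3), a ratio of 1.45 with a 95% interval of 1.08 to 1.94 (log2 fold change 0.53, SE 0.18, edgeR unadjusted p = 0.0194, adjusted p = 0.652). An exact two-sided permutation test over log2 CPM gave p = 0.1, the smallest it can give with 3 tumors a group. By unadjusted p it ranked 412 of 13892 genes. Without *Prmt3*LKO replicate 93 the unadjusted p was 0.0696 in the quasi-likelihood test of edgeR. *Mars*, a methionine tRNA synthetase gene, overlaps *Ddit3* on the opposite strand by 68 bases in GENCODE vM21 and was at 35.5 to 56.1 CPM in *Prmt3*f/f and 50.5 to 52.5 CPM in *Prmt3*LKO tumors. A further model of *Ddit3* that overlaps it by 2925 bases on the same strand was not among the rows used here, and the use of strand in counting is not given in the sources used here. The leukocyte markers moved the other way between the same groups, and their part in the level of *Ddit3* was not tested.

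*Atf4* (ENSMUSG00000042406, chromosome 15, 80255184 to 80257540, plus strand), the central factor of the integrated stress response, was at 107, 110 and 93.7 CPM in *Prmt3*f/f and at 85.7, 128 and 144 CPM in *Prmt3*LKO tumors. The *Prmt3*LKO tumors held both the lowest value, in replicate 92, and the 2 highest, so the groups overlapped. The ratio was 1.15 with a 95% interval of 0.822 to 1.62 (edgeR adjusted p = 0.945).

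*Atf3* (ENSMUSG00000026628, chromosome 1, 191170296 to 191218039, minus strand) is a target of ATF4 that also answers growth and injury signals as an early gene. It was at 7.57, 9.05 and 14.4 CPM in *Prmt3*f/f and at 4.801, 32.2 and 7.19 CPM in *Prmt3*LKO tumors. *Prmt3*LKO replicate 93 was 6.70-fold above replicate 92 of its own group, and those 2 tumors were the highest and the lowest of all 6. The log2 fold change of 0.51 (SE 0.67, edgeR adjusted p = 0.957) was −0.79 without replicate 93, 0.09 with limma-voom and 0.04 on log2(FPKM + 0.1). The 2 tumors with most *Atf3*, *Prmt3*LKO replicate 93 and *Prmt3*f/f replicate 71, each also held the highest value of 8 of 19 immediate early genes, the genes that cells switch on within minutes of a signal. These tumors held the highest value of 17.39% and 15.61% of all genes tested. The part of such signals in the level of *Atf3* was not tested.

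*Xbp1* (ENSMUSG00000020484, chromosome 11, 5520659 to 5525893, plus strand), the target of IRE1 and a factor that secretory cells keep high, was at 464, 324 and 299.6 CPM in *Prmt3*f/f and at 326, 337 and 274 CPM in *Prmt3*LKO tumors. *Prmt3*f/f replicate 7 was above the rest, and the other 5 tumors lay between 274 and 337 CPM. The ratio was 0.861 with a 95% interval of 0.610 to 1.22 (edgeR adjusted p = 0.942). Plasma cell markers mark antibody-secreting cells that use XBP1. Of these, 4 of 8 tested were lower in *Prmt3*LKO tumors at an unadjusted p under 0.05, against 4.37% of all genes tested. The 4 were *Igkc*, *Ighm*, *Igha* and *Jchain*. *Mzb1*, *Prdm1* and *Irf4* did not reach that limit (log2 fold changes −0.96, −0.25 and −0.42), and *Sdc1* went the other way (0.35). *Igkc*, an immunoglobulin light chain, was at 131.8 to 192 CPM in *Prmt3*f/f and at 19.4 to 74.7 CPM in *Prmt3*LKO tumors, while the defining marker *Tnfrsf17* did not exceed 0.140 CPM in any tumor. The part of these cells in the level of *Xbp1* was not tested.

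**Figure D3:**
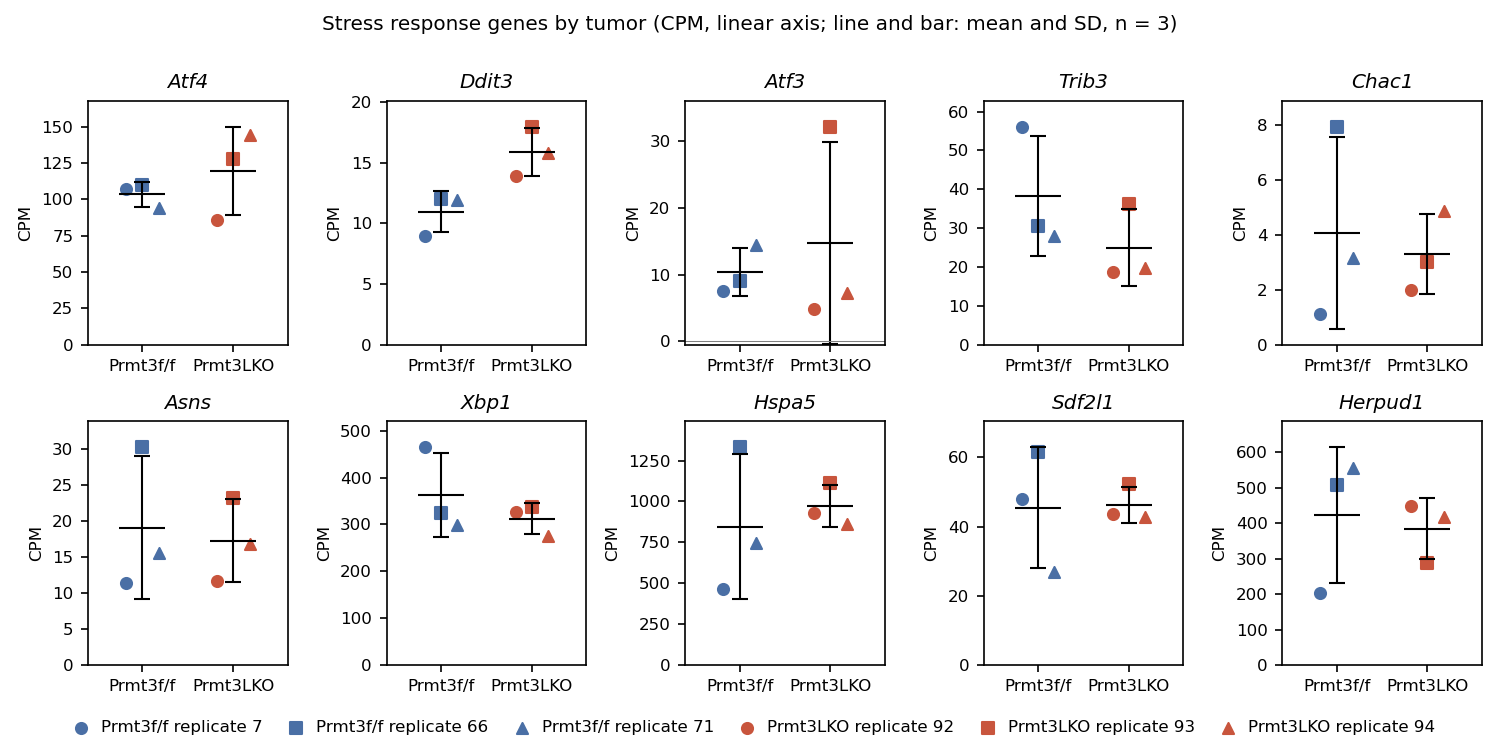
CPM (y axis, linear) of each of the 10 genes in the 3 *Prmt3*f/f tumors (blue) and the 3 *Prmt3*LKO tumors (red), with 1 marker shape for each replicate and the mean and SD of each group in black. *Ddit3* is the panel in which the groups do not overlap, and *Atf3* owes its wide *Prmt3*LKO bar to replicate 93, at 32.2 CPM.

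The 3 targets of ATF4 outside the group of transcription factors were spread widely within each genotype. *Trib3* (ENSMUSG00000032715, chromosome 2, 152337422 to 152344032, minus strand), a pseudokinase that restrains AKT and ATF4, was at 56.0, 30.5 and 28.02 CPM in *Prmt3*f/f and at 18.8, 36.3 and 19.6 CPM in *Prmt3*LKO tumors. The lowest values were in *Prmt3*LKO replicates 92 and 94, but replicate 93 was above 2 of the *Prmt3*f/f tumors. The means were 38.2 ± 15.5 and 24.9 ± 9.9 CPM (SD, n = 3), with a log2 fold change of −0.61 (SE 0.35, 95% interval −1.42 to 0.20, edgeR unadjusted p = 0.119, adjusted p = 0.831). Leaving out *Prmt3*LKO replicate 93 gave −0.99 with an unadjusted p of 0.0201 (edgeR adjusted p = 0.786). The value was −0.24 when *Prmt3*f/f replicate 7 was left out.

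*Chac1* (ENSMUSG00000027313, chromosome 2, 119351229 to 119354381, plus strand), an enzyme that degrades glutathione, had the fewest reads of the 10. Its values were 1.11, 7.93 and 3.16 CPM in *Prmt3*f/f and 2.0, 3.02 and 4.87 CPM in *Prmt3*LKO tumors, from 24 to 170 reads. The *Prmt3*f/f tumors spanned 7.16-fold and enclosed all 3 *Prmt3*LKO tumors. The log2 fold change was −0.30 (SE 0.65, 95% interval −1.82 to 1.22, edgeR adjusted p = 0.983). Leaving out *Prmt3*f/f replicate 66 turned it to 0.62, and limma-voom gave 0.05.

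*Asns* (ENSMUSG00000029752, chromosome 6, 7675169 to 7693254, minus strand), the enzyme that makes asparagine, was at 11.3, 30.2 and 15.5 CPM in *Prmt3*f/f and at 11.7, 23.1 and 16.8 CPM in *Prmt3*LKO tumors. The highest tumor of each group was at 2.67-fold and 1.99-fold the lowest of that group, and the ratio between the means of the groups was 0.907 with a 95% interval of 0.484 to 1.702 (edgeR adjusted p = 0.988). *Prmt3*f/f replicate 66 was the highest tumor for *Chac1* and *Asns*, and *Prmt3*f/f replicate 7 the lowest for both. *Trib3* did not follow that order, since its highest value was in replicate 7.

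The remaining 3 genes act in the ER itself. *Hspa5* (ENSMUSG00000026864, chromosome 2, 34771970 to 34777547, plus strand) encodes the chaperone BiP and was at 465, 1331 and 744 CPM in *Prmt3*f/f and at 930, 1113 and 865 CPM in *Prmt3*LKO tumors. The *Prmt3*f/f tumors spanned 2.86-fold, with replicate 66 the highest and replicate 7 the lowest of all 6, and the *Prmt3*LKO tumors lay between them within 1.29-fold. The ratio was 1.15 with a 95% interval of 0.634 to 2.07 (log2 fold change 0.20, SE 0.37, edgeR adjusted p = 0.9748). Leaving out replicate 7 turned the log2 fold change to −0.11.

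*Sdf2l1* (ENSMUSG00000022769, chromosome 16, 17130138 to 17132383, minus strand), a partner of BiP and its cochaperones, was at 47.9, 61.6 and 26.9 CPM in *Prmt3*f/f and at 43.7, 52.3 and 42.8 CPM in *Prmt3*LKO tumors. Again the *Prmt3*LKO tumors lay inside the range of the *Prmt3*f/f tumors, and the means were 45.5 ± 17.4 and 46.2 ± 5.3 CPM (SD, n = 3, ratio 1.02, 95% interval 0.646 to 1.604, edgeR adjusted p = 0.996). *Herpud1* (ENSMUSG00000031770, chromosome 8, 94386438 to 94395377, plus strand), a scaffold of the ligase complex for ER-associated degradation, was at 202, 509 and 555 CPM in *Prmt3*f/f and at 449, 288 and 417 CPM in *Prmt3*LKO tumors. The lowest of all 6 tumors was *Prmt3*f/f replicate 7, and the other 2 of that genotype were the highest. An antisense gene that overlaps *Herpud1* by 535 bases had at most 2 reads in a tumor. The ratio was 0.911 with a 95% interval of 0.496 to 1.67 (edgeR adjusted p = 0.988).

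Levels of different genes were compared by FPKM, a value per length. The length that the deposited FPKM implied was above the combined exon length in GENCODE vM21, by more than 1.1 times, for 64.5% of the 8963 well-covered genes compared (100 or more reads in each tumor), and for *Hspa5* it was 6952 bases against 4229, so FPKM understates the level of such genes. Over the 6 tumors the order of the mean FPKM was *Hspa5* (130.1 ± 42.0 SD), *Herpud1* (93.8), *Xbp1* (75.2), *Atf4* (64.7), *Sdf2l1* (41.3), *Trib3* (10.0), *Ddit3* (5.84), *Atf3* (4.97), *Asns* (4.83) and *Chac1* (2.23 ± 1.44 SD). Of the 9 neighbouring pairs in that order, the ranges over tumors overlapped for all but *Sdf2l1* and *Trib3*. With the exon length in place of the implied one, the order changed only in that *Asns* (6.62) came before *Atf3* (5.92). *Hspa5* was then at 213.9, *Xbp1* at 104.2 and *Atf4* at 47.3, and *Xbp1* and *Atf4* were the one neighbouring pair without overlap. *Asns* and *Chac1* had overlapping ranges, although *Asns* was above *Chac1* in all 6 tumors.

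The spread between tumors of 1 genotype was large for these genes. The median SD of log2 CPM within groups was 0.545 over the 10 genes and 0.277 over all genes tested, and 8 of the 10 were above the latter value. *Atf3*, with an SD of 1.07, was at the 96.5th percentile of all genes tested and *Chac1*, also 1.07, at the same percentile, whereas *Ddit3*, with 0.21, was at the 33.0th. *Prmt3*f/f replicate 66 held the highest value of 4 of the 10 genes (*Hspa5*, *Chac1*, *Asns* and *Sdf2l1*) and of 14.91% of all genes tested. *Prmt3*f/f replicate 7 held the lowest value of 5 of the 10 and of 23.64% of all genes tested, but the highest of *Trib3* and *Xbp1*. The mean deviation of the 10 genes from their own means, on the log2 scale, came to −0.33, 0.34 and −0.06 in the *Prmt3*f/f tumors and to −0.28, 0.33 and 0.00 in the *Prmt3*LKO tumors. Each genotype therefore held 1 tumor with a low, 1 with a high and 1 with a middle mean over the 10 genes. Over *Hspa5*, *Sdf2l1*, *Herpud1* and *Xbp1* alone the mean was −0.306, 0.368 and −0.136 in the *Prmt3*f/f tumors. It was 0.072, 0.053 and −0.051 in the *Prmt3*LKO tumors. Over the remaining genes it was −0.343, 0.321 and −0.003 in *Prmt3*f/f and −0.520, 0.508 and 0.037 in *Prmt3*LKO tumors. In *Prmt3*LKO replicate 93 the largest deviation was that of *Atf3* (1.65), followed by *Ddit3* (0.45), *Asns* (0.44), *Hspa5* (0.37) and *Trib3* (0.30), while *Chac1* was at −0.03 and *Herpud1* at −0.41.

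**Figure D4:**
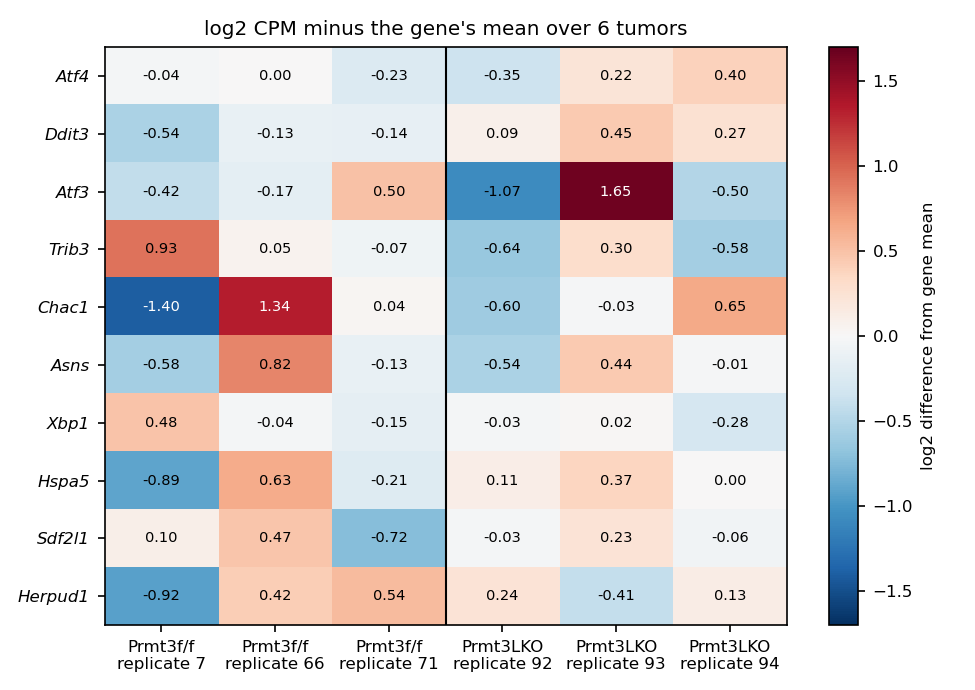
Log2 CPM minus the mean of the gene over all 6 tumors (color and number in each cell) for the 10 genes (rows) in each tumor (columns), with a line between the genotypes. High and low tumors occur in both genotypes, and the extremes are 1.65 for *Atf3* in *Prmt3*LKO replicate 93 and −1.40 for *Chac1* in *Prmt3*f/f replicate 7.

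Lists of 9 related processes, written by hand, gave the surroundings of these genes, and none of their genes had an adjusted p under 0.05 in the quasi-likelihood test of edgeR. Of all genes tested, 4.37% were lower and 2.2% higher at an unadjusted p under 0.05 in that test. From each list the 3 genes with the smallest unadjusted p were looked at. Among 17 genes for sensors, eIF2α kinases and phosphatases, and the proteases of ATF6, 1 was lower and 0 were higher at an unadjusted p under 0.05, with a median log2 fold change of −0.02. That gene was *Nfe2l1*, an ER-anchored factor that raises proteasome genes, at 23.6, 43.1 and 122 CPM in *Prmt3*f/f and 23.6, 23.8 and 31.5 CPM in *Prmt3*LKO tumors, so a single tumor was far above the others. *Ppp1r15a* and *Ppp1r15b*, the subunits that direct removal of phosphate from eIF2α, had log2 fold changes of −0.22 and 0.23.

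Of 22 genes for chaperones and disulfide isomerases of the ER, 0 were lower and 0 higher at an unadjusted p under 0.05, with a median log2 fold change of −0.03. The first 3 by p were *Ero1l* (0.65), an oxidase of the ER, *Creld2* (0.38), a disulfide isomerase, and *Pdia3* (−0.21), a disulfide isomerase for glycoproteins. As for *Hspa5* and *Sdf2l1*, *Prmt3*f/f replicate 66 was the highest tumor, for 15 of these 22 genes (68.18%, against 14.91% of all genes tested). Of 24 genes of ER-associated degradation and translocation, 1 was lower and 0 were higher, with a median log2 fold change of 0.03. The lower one, *Fam129a*, is a stress-induced regulator of translation rather than a degradation factor, with log2 fold change −0.37. *Derl2*, a channel component of degradation, was at 62.7 to 74.8 CPM in *Prmt3*f/f and 83.2 to 87.9 CPM in *Prmt3*LKO tumors, without overlap (log2 fold change 0.31, edgeR unadjusted p = 0.0515). *Herpud2*, the paralog of *Herpud1*, had a log2 fold change of −0.25.

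Downstream of ATF4, 20 genes of amino acid synthesis and transport and of one-carbon metabolism had 0 lower and 0 higher at an unadjusted p under 0.05, and a median log2 fold change of −0.01. *Shmt2*, a mitochondrial enzyme of serine and glycine metabolism, was at 154 to 180.2 CPM in *Prmt3*f/f and 185 to 203 CPM in *Prmt3*LKO tumors, without overlap (log2 fold change 0.23, edgeR unadjusted p = 0.151). *Slc38a1*, a glutamine carrier, had all *Prmt3*LKO tumors below (log2 fold change −0.44). *Phgdh*, the entry enzyme of serine synthesis, was at 16.0 CPM in *Prmt3*f/f replicate 66 and at 2.29 to 5.59 CPM in the other 5 tumors. Among 13 tRNA synthetase genes, the list with *Mars*, *Wars* and the tRNA exporter *Xpot* first by p, 0 were lower and 0 higher, and the median log2 fold change was 0.04. *Prmt3*f/f replicate 66 was the highest tumor for 6 of these 13 and replicate 7 the lowest for 8, the same 2 tumors as for *Asns*. Over all genes tested these shares were 14.91% and 23.64%.

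Of 23 other regulators and secreted factors of the stress response, 1 was lower and 1 higher, with a median log2 fold change of 0.06. The lower one was *Bcl2l11*, the death factor BIM and a target of CHOP, with a log2 fold change of −0.50 (edgeR unadjusted p = 0.0451). Its groups overlapped. The higher one was *Map1lc3b*, a coat protein of autophagosomes, at 32.7, 37.0 and 38.4 CPM in *Prmt3*f/f and 96.5, 80.9 and 33.4 CPM in *Prmt3*LKO tumors, where replicate 94 stayed within the *Prmt3*f/f range. *Vldlr*, a lipoprotein receptor, was at 6.63 CPM in *Prmt3*LKO replicate 93 and at 1.02 to 1.76 CPM elsewhere.

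Chaperones outside the ER were listed as well, and no test compared the lists. Of 13 cytosolic heat shock genes, 3 were higher at an unadjusted p under 0.05 against 2.2% of all genes tested. The same 3 had all *Prmt3*LKO tumors above, as had 5.56% of all genes tested. The median log2 fold change of the 13 was 0.24. *Dnajb1*, a cochaperone of HSP70, was at 43.4, 41.1 and 41.7 CPM in *Prmt3*f/f and 75.3, 66.6 and 53.5 CPM in *Prmt3*LKO tumors (log2 fold change 0.63, SE 0.16, edgeR unadjusted p = 0.00447, adjusted p = 0.592). *Bag3*, a nucleotide exchange factor of HSP70, was at 30.5 to 49.96 CPM and 61.2 to 73.7 CPM (log2 fold change 0.70), and *Hspa1a*, an inducible HSP70, at 2.94 to 9.37 CPM and 10.8 to 15.9 CPM (1.23). *Hspa1a* has a near-identical copy, *Hspa1b*, with which it can share reads, so its count is uncertain. *Hspa1b* was at 34.2, 28.2 and 71.2 CPM in *Prmt3*f/f and at 113, 51.5 and 78.4 CPM in *Prmt3*LKO tumors. The groups of *Hspa1b* overlapped (log2 fold change 0.86, edgeR unadjusted p = 0.067). Of 8 genes of mitochondrial chaperones and proteases, 1, *Hspe1* (HSP10), was higher (log2 fold change 0.36, edgeR unadjusted p = 0.0409) and 0 were lower, and *Lonp1* and *Clpp*, both proteases, had log2 fold changes of 0.28 and 0.13. *Prmt3*LKO replicate 92, lowest for 3 of the 10 stress response genes, was the highest tumor for 8 of the 13 heat shock genes. Over all genes tested it was the lowest for 14.78% and the highest for 12.99%.

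Of the 19 immediate early genes, 2 were lower and 0 higher at an unadjusted p under 0.05, against 4.37% and 2.2% of all genes tested. Their median log2 fold change was −0.23, and 3 had all *Prmt3*LKO tumors below, as had 6.6% of all genes tested. *Gadd45a*, a growth arrest gene that ATF4 and p53 can raise, was at 4.801, 6.44 and 6.22 CPM in *Prmt3*f/f and 2.74, 2.84 and 2.36 CPM in *Prmt3*LKO tumors (log2 fold change −1.13, SE 0.22, edgeR unadjusted p = 0.00116, adjusted p = 0.592). *Gadd45b*, its relative, and *Egr2*, a zinc finger factor, had log2 fold changes of −1.02 and −0.70. *Ddit3* and *Gadd45a*, both named as DNA damage inducible genes, each had groups that did not overlap, in opposite directions. The part of the leukocyte markers, which were lower in the same tumors as *Gadd45a*, was not tested.

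**Figure D5:**
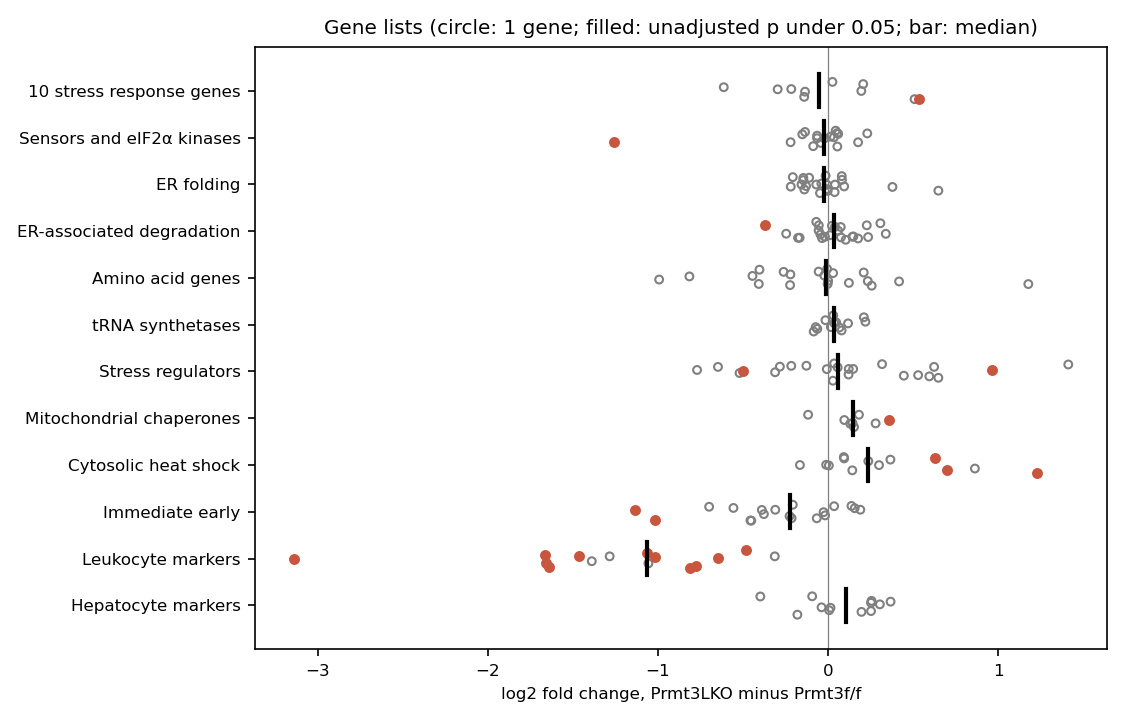
Log2 fold change of *Prmt3*LKO over *Prmt3*f/f tumors (x axis) of each tested gene (circle) in the 10 stress response genes, the 9 related lists and the leukocyte and hepatocyte markers (rows), filled at an unadjusted p under 0.05, with a bar at the median. The stress lists center near 0, with medians from −0.23 for immediate early to 0.24 for heat shock genes, and the leukocyte markers have a median of −1.07.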

How the data were processed

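RNA was sequenced from 3 *Prmt3*f/f and 3 *Prmt3*LKO liver tumors, as paired-end reads of 150 bp. The authors aligned them to GRCm38, and their processing notes name HISAT2 2.0.4, StringTie 1.3.0 and bcl2fastq 2.19. The counting step, annotation release and use of strand are not given in the sources used here. The authors deposited 1 table with, per gene and tumor, a whole-number read count that is not normalized and an FPKM value, which divides the count by a length and by the total count. That length often exceeded the combined exons of the gene, and levels were recomputed with the exon length of GENCODE vM21, an alternative chosen after seeing the data. All 12 value columns were mapped, and 0 were left out.

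Genes were filtered with filterByExpr (minimum count 10, minimum total count 15), scaled by TMM and fitted in edgeR 4.0.16 (R 4.3.3), whose quasi-likelihood test was used with Benjamini-Hochberg adjustment over 13892 genes. Calls required an adjusted p under 0.05 together with a change of at least 2-fold. Intervals are at 95%. Log2 CPM took a prior count of 2, and members were also compared with exact permutation tests, two-sided. The fits were tested on simulated counts with changes larger than those of the members, so that test does not show how well changes of their size are found.

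The members and lists (9 of related processes, 7 of cell type markers) were chosen with earlier results of these data known. Named genes were the 10 members, *Prmt3*, from each related list the 3 with the smallest unadjusted p, and from the cell type lists those needed for their levels. *Hspa1b* was added after its values were seen, and 1 gene entered in error was then taken off the mitochondrial list. Promoter windows came from RefSeq on GRCm38.p6, and gene overlaps from GENCODE vM21. The annotated end of *Atf4* differed from the file by 1 base and the other members' spans did not differ.

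Alternatives were DESeq2 1.42.0, the exact test of edgeR, limma-voom (limma 3.58.1), no filter beyond 1 count, scaling by library size without TMM, a filter at a mean of 1 CPM, log2 of FPKM with a pseudocount of 1 or 0.1, and each tumor left out in turn. Depth was 18440244 to 27976598 counts per tumor, and the 3 tumors a group limit the precision.

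Over all 6 tumors, summed cell type markers were 436.4 to 1181 CPM for macrophages, 365 to 917.1 CPM for stellate cells, 206.4 to 4103 CPM for cholangiocytes (of which *Spp1* made most) and 259.5 to 336.2 CPM for endothelial cells, with 6 of 9, 0 of 9, 1 of 5 and 0 of 7 tested markers lower at an unadjusted p under 0.05 and 0 higher. Of all genes tested, 4.37% were lower and 2.2% higher.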

Additional observations from a re-analysis of the deposited data

How the results depend on the processing

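Over 14 alternatives, the 10 members gave 140 values, of which 129 kept the sign reported and 11 did not, and 0 had an adjusted p under 0.05 in any fit. The number of genes called in all was 54 with DESeq2 (44 lower, 10 higher), 40 with the exact test of edgeR (35 lower, 5 higher) and 2 without a filter beyond 1 count (2 lower), against 0. *Prmt3* passed the threshold with DESeq2 (log2 fold change −1.547, adjusted p = 0.00350) and with the exact test of edgeR (−1.548, adjusted p = 0.00735), and leaving out a tumor gave −1.804 to −1.343. With log2(FPKM + 1) it was −0.81, since a pseudocount understates low genes. The median of the members was −0.152 to 0.333 with a tumor left out, the highest without *Prmt3*f/f replicate 66, and −0.061 to 0.068 otherwise.

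The sign turned for 6 members with a tumor left out, and the cause was not tested. *Hspa5* ranged from −0.108 (without *Prmt3*f/f replicate 7) to 0.682, *Atf3* from −0.788 (without *Prmt3*LKO replicate 93) to 0.926, *Chac1* from −0.749 to 0.616 (without *Prmt3*f/f replicate 66), *Asns* from −0.416 to 0.359 (without *Prmt3*f/f replicate 66, and 0.075 without *Prmt3*LKO replicate 92), *Herpud1* from −0.476 to 0.115 (without *Prmt3*f/f replicate 71, with 0.021 without replicate 66 and 0.038 without *Prmt3*LKO replicate 93) and *Sdf2l1* from −0.241 (without *Prmt3*f/f replicate 71, with −0.070 without *Prmt3*LKO replicate 93) to 0.308. *Chac1* also turned with limma-voom (0.045), which gave 0.093 for *Atf3*, −0.014 for *Herpud1*, −0.052 for *Asns* and 0.318 for *Hspa5*, and log2(FPKM + 0.1) gave 0.041, −0.051, −0.096 and 0.297 for these 4 genes and −0.013 for *Chac1*. *Ddit3* stayed between 0.403 and 0.621, *Atf4* between 0.049 and 0.398, *Trib3* between −0.987 and −0.240 and *Xbp1* between −0.335 and −0.007. Without *Prmt3*LKO replicate 93 the single member at an unadjusted p under 0.05 in the quasi-likelihood test of edgeR was *Trib3*, lower, in place of *Ddit3*, higher. No paired analysis was possible because the groups share no replicate numbers. Depth limits *Chac1* most, with 24 reads in its lowest tumor.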

Other observations

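*Slc7a11*, the cystine carrier and a target of ATF4, was singled out after its values were seen. It was at 69.4, 2.99 and 14.9 CPM in *Prmt3*f/f and at 18.9, 143 and 35.3 CPM in *Prmt3*LKO tumors (log2 fold change 1.18, SE 1.08, edgeR adjusted p = 0.932). Its 2 highest tumors, *Prmt3*LKO replicate 93 and *Prmt3*f/f replicate 7, were also the 2 highest for *Trib3*, at 36.3 and 56.0 CPM, and the 2 lowest for *Cyp2e1*, at 244 and 166 CPM. The lowest tumor for *Slc7a11*, *Prmt3*f/f replicate 66, was the highest for *Chac1* and *Asns*, so targets of ATF4 did not share 1 order of tumors.

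Correlations of log2 CPM between the 10 genes over the 6 tumors were computed after the data had been seen, for 45 pairs, and none passed adjustment. Pearson's r was positive in 30 pairs, with a median of 0.249, but pairs of other genes were not computed for comparison. The smallest adjusted permutation p was 0.625. *Chac1* with *Asns* had r = 0.844 (exact permutation p = 0.0417) and Spearman's rho of 0.829 (exact permutation p = 0.0583), and r was 0.489 without the 2 tumors farthest from the median of *Chac1*. *Hspa5* with *Asns* had r = 0.805 (exact permutation p = 0.0361) and rho of 0.829 (exact permutation p = 0.0583), and r was 0.504 without the 2 tumors farthest from the median of *Hspa5*. The largest r was that of *Trib3* with *Xbp1*, 0.847 (exact permutation p = 0.0556), with rho of 0.657 (exact permutation p = 0.175) and r of 0.974 without the 2 tumors farthest from the median of *Trib3*. The most negative was that of *Xbp1* with *Herpud1*, −0.818 (exact permutation p = 0.1), with rho of −0.657 (exact permutation p = 0.175) and r of −0.794 without the 2 tumors farthest from the median of *Xbp1*.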
